A study of Rattus norvegicus with 14 samples.

Results

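The genes described here encode solute carriers, ATP-binding cassette (ABC) proteins, ATPase pumps, potassium channels and tweety family proteins. They were chosen by symbol among candidate transcription start sites (TSSs) of rat Schwann cells. The rule was set with earlier results of these data known. It took symbols beginning with Slc and a digit, Slco, Abca to Abcg and a digit, Atp1a or Atp1b, Atp2a to Atp2c, Atp6, Kcn, Aqp or Ttyh. Of the 2993 genes with candidate TSSs, 58 matched, and they held 90 of the 4993 candidate TSSs. Each gene was represented by the TSS with the highest mean level in 2 sciatic nerve libraries, called its main TSS here. Among the 58 genes, 40 symbols began with Slc, including 10 mitochondrial carriers of the Slc25 family. A further 6 were of the Slc35 family, which holds nucleotide sugar transporters and their relatives. The others included 7 V-ATPase genes, 5 ABC genes, 4 potassium channel genes and Ttyh1. No symbol beginning with Aqp, the water channels, was among the candidates.

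Solute carriers move ions, metabolites and nutrients across the plasma membrane and the membranes of organelles, and the Slc25 family serves the inner mitochondrial membrane. The vacuolar ATPase (V-ATPase) pumps protons into lysosomes and other compartments. Schwann cells, the myelinating glia of peripheral nerve, exchange ions and metabolites with the axons that they wrap, and their potassium channels take part in buffering the potassium that active axons release.

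Transcript 5′ ends were measured with Tn5Prime, in which each read marks the start of a captured transcript, so that levels do not scale with transcript length. The candidates are TSSs of nerve within 1 kb of an H3K4me3 peak that overlaps a peak of SOX10, the transcription factor of the Schwann cell lineage. The 14 libraries came from 2 sciatic nerves of adult rats aged 6 to 9 months, from primary rat Schwann cells given vehicle (control, 3 libraries) or 250 μM CPT-cAMP (cAMP, 3 libraries) for 3 days, and from the rat Schwann cell line S16. CPT-cAMP is a cell-permeable cAMP analog used to model differentiation. The S16 libraries were 2 RNA samples of the unmodified parental line and 1 library from each of 4 clones (ΔSOX10 S16) in which Cas9 left only frameshift alleles of Sox10. Clones 1-1 and 1-2 and clones 2-1 and 2-2 form the series 1 and 2 of the labels. Levels are in RPM, reads scaled to the depth of the library, and libraries held between 29895599 and 79940274 reads, with 3 reads worth between 0.0375 and 0.1 RPM. Nerve and S16 libraries were sequenced on a HiSeq and primary cell libraries on a NovaSeq instrument, so no test was made between these sets. In bulk samples, fewer cells of a type and less RNA per cell cannot be told apart.

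The Sox10 TSS, the check of the edited gene, had 90.7 and 77.5 RPM in the parental libraries and between 0 and 0.114 RPM in the ΔSOX10 clones. The summed level of 12 Schwann cell marker genes was between 4027 and 4281 RPM in parental S16 and between 55.2 and 66.8 RPM in ΔSOX10 S16 cells. In primary cells it was between 5858 and 6030 RPM in control and between 6962 and 7785 RPM with cAMP. Of the fibroblast markers, Clec3b, Col1a1 and Pdgfra were listed. Col1a1 alone made up nearly all of their sum, with 790 to 892 RPM in control, 366 to 459 RPM with cAMP, 2200 to 2770 RPM in parental S16 and 2910 to 5171 RPM in ΔSOX10 S16 cells. In the cultured cells Clec3b was at 0 and Pdgfra at most at 1.29 RPM. Pdgfrb, a mural cell marker, had 0.331 to 1.91 RPM in control and 22.4 to 26.9 RPM with cAMP, and 3.14 to 5.52 RPM in parental and 2.82 to 19.3 RPM in ΔSOX10 S16 cells. Csf1r, a macrophage marker, was at 0 in all primary cell and parental libraries and at most 0.966 RPM in a ΔSOX10 clone. In nerve, Csf1r had 1.07 and 4.82 RPM and Pdgfrb 27.1 and 51.2 RPM, and no adipocyte marker of the list was among the candidates. The part of these markers in the results below was not tested.

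In sciatic nerve, proton pump subunits and mitochondrial carriers were the members with the highest levels. Atp6v0c, the ring subunit through which the V-ATPase moves protons, had 369 and 497 RPM, and Slc25a4, the ADP/ATP carrier of mitochondria, had 181 and 207 RPM. They were followed by the V-ATPase stalk subunit Atp6v1f with 149 and 201 RPM, the mitochondrial phosphate carrier Slc25a3 with 135 and 147 RPM, and a further stalk subunit, Atp6v1d, with 126 and 117 RPM. Only Atp6v0c lay above every other member in both nerves. The nerve values of the next neighbours in this order, Slc25a4 and Atp6v1f, overlapped. Atp6v1f lay above Slc25a3, and Slc25a3 above Atp6v1d, without overlap of the nerve values, though those of Atp6v1f spread widely.

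Next in mean level came Slc3a2, the heavy chain of heteromeric amino acid transporters, at 89.2 ± 16.1 RPM (SD, n = 2 nerves), and Atp6ap1, an accessory protein of the V-ATPase, at 77.5 ± 5.67 RPM. The sugar transporter Slc50a1 reached 49.3 ± 5.83 RPM, the proton-coupled amino acid transporter Slc36a2 46.7 ± 3.28 RPM and Slc35b1, a nucleotide transporter of the endoplasmic reticulum, 45.5 ± 16.2 RPM, and these 3 did not differ beyond their spread. The zinc transporter Slc39a7 was the highest of the metal ion transporters at 42.2 ± 4.03 RPM. The median of the 58 main TSSs was 9.24 RPM, beside 12 RPM over all 2993 genes. The range ran from 1.86 RPM at Kcnab2 to 433 RPM at Atp6v0c, with 18 members above 20 RPM and 19 under 5 RPM.

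**Figure D1:**
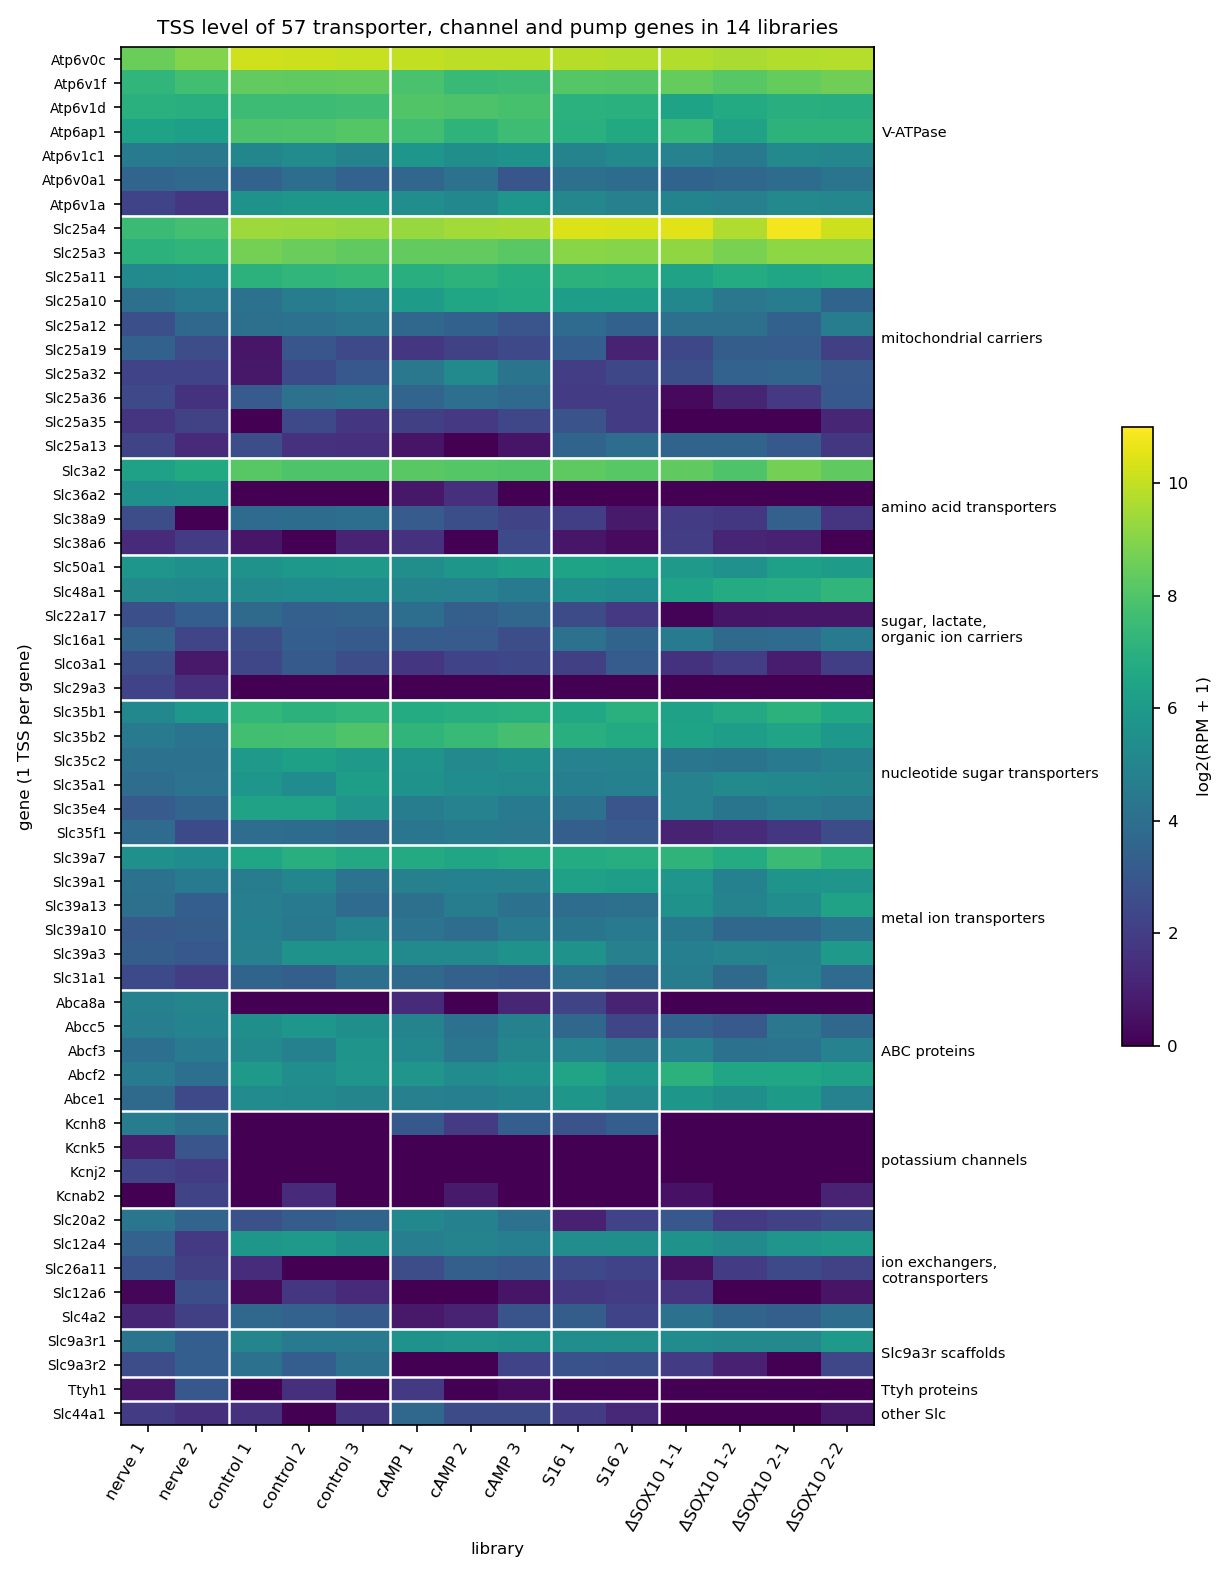
Level of the main TSS of 57 of the 58 genes (rows, grouped by family) in each of the 14 libraries (columns), as log2(RPM + 1) on the colour scale. Atp6v0c, Atp6v1f, Slc25a4 and Slc25a3 are among the brightest rows in every library, and Slc36a2, Kcnj2, Kcnk5 and Slc29a3 are lit in nerve and dark, at or near 0, in cultured cells.

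The main TSSs of a group of members were present in nerve and low in or wholly missing from the cultured cells. Kcnk5, a tandem-pore potassium channel, Kcnj2, an inward rectifier, and Slc29a3, a lysosomal nucleoside transporter, had 0 reads at their main TSS in all 12 cultured cell libraries. Their nerve levels were low, with 3.61 and 2.79 RPM for Kcnj2 and 0.836 and 6.36 RPM for Kcnk5. Kcnk5 as a gene was not missing from culture. A second TSS of Kcnk5, described below, had 3.98 and 0.886 RPM in nerve and 19.2, 26.5 and 35 RPM with cAMP. Slc36a2 stood out by its level, with 44.4 and 49.1 RPM in nerve, 0 in control cells, 0.651, 1.8 and 0 RPM with cAMP and 0 in all S16 libraries. Abca8a, an ABC protein of the A family, had 27.5 and 31.2 RPM in nerve, 0 in control cells, at most 1.45 RPM with cAMP and 3.71 and 1.06 RPM in parental S16 cells. Nerve holds axons and cells other than Schwann cells. The difference between nerve and primary cells cannot be told apart from that of the instruments, while nerve and S16 libraries were both sequenced on a HiSeq. With a mean above 1 RPM at the main TSS counted as present, 47 of the 58 genes were present in control, 48 in cAMP-treated, 50 in parental S16 and 45 in ΔSOX10 S16 cells. Over all 2993 genes, the counts in the same order were 2719, 2760, 2709 and 2621. All candidates were chosen as TSSs of nerve.

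The comparison of cAMP-treated with control primary Schwann cells asks which of these genes change during differentiation in culture. Of the 58 members, 52 were above 1 RPM in at least 2 of the 6 libraries and were tested. With limma, 8 rose (15.4%) and 10 fell (19.2%), beside 13.5% higher and 13.9% lower over the main TSSs of all 2832 genes tested. In all 18 the control and cAMP libraries did not overlap. The same held for members that were not called, such as Slc35b1, Slc48a1, Atp6v1c1 and Slc25a12. How often it held over all genes was not counted, so it adds no support to the calls. The members tested had a median log2 fold change of -0.12, and all genes one of -0.03. The changes were largest for a potassium channel, carriers of folate, anions, choline and dicarboxylates on the side that rose, and for a PDZ scaffold, a chloride/bicarbonate exchanger and a member of the Slc35 family on the side that fell. The counts were 6 higher and 7 lower with edgeR on recovered reads and 7 and 12 with DESeq2, and 7 in each direction without the filter on low values. The count of lower genes fell to 6 without the first or the second control library or without the second cAMP library.

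**Figure D2:**
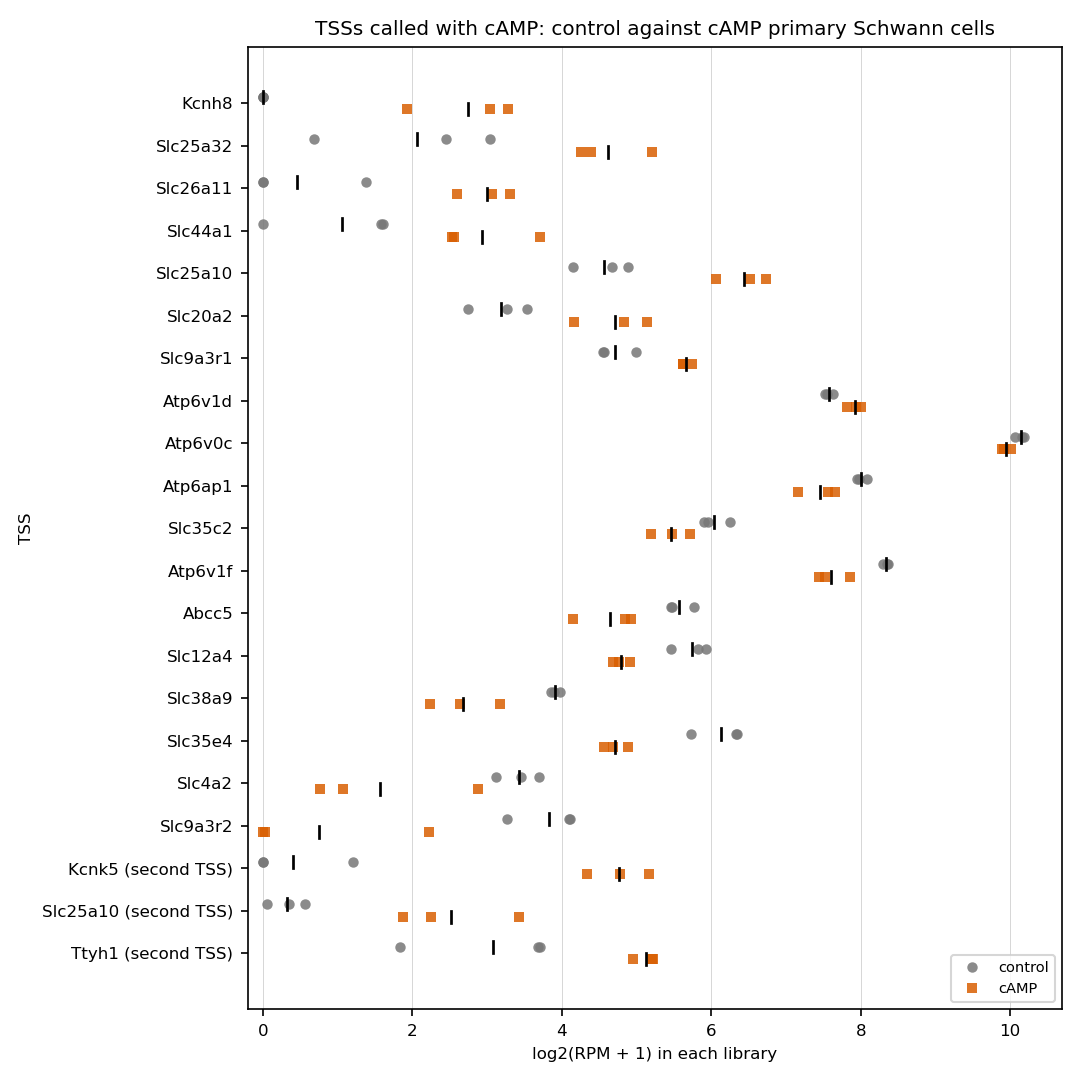
Level of each TSS called in the cAMP comparison, as log2(RPM + 1) on the x axis, with 1 circle per control library, 1 square per cAMP library and a black line at the mean of each group. The first 18 rows are main TSSs from the largest increase to the largest decrease, the last 3 rows are other TSSs of member genes, and no row has overlapping groups.

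Kcnh8, a voltage-gated potassium channel of the ether-a-go-go family, went from no read to a measurable level. Its main TSS (chromosome 9, 36862674 to 36862758, rn5, plus strand) had 0 RPM in all 3 control libraries and 7.22, 2.82 and 8.67 RPM with cAMP. Against a floor of 3 reads in each control library, the cAMP mean was at least 119-fold higher, with a log2 fold change of 2.75 (standard error, SE, 0.58, and limma adjusted p = 0.00115). It passed the minimum level through the cAMP libraries alone, so that it could be tested only because it was high there.

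Both mitochondrial carriers that were called rose, 20% of the 10 tested, beside 13.5% over all genes tested. Slc25a10, the dicarboxylate carrier, had 16.8, 24.5 and 28.5 RPM in control and 65.9, 90.5 and 105 RPM with cAMP. Every cAMP library was above every control library, and the means differed 3.75-fold (log2 fold change 1.87, SE 0.23, limma adjusted p = 1.54e-06). Slc25a32, the mitochondrial folate carrier, had 0.613, 4.46 and 7.25 RPM in control and 19.9, 35.9 and 18.1 RPM with cAMP (log2 fold change 2.55, SE 0.51, limma adjusted p = 0.000641). The control libraries of Slc25a32 spread widely, and none reached the lowest cAMP library. The other 8 mitochondrial carriers were tested and not called, and the abundant Slc25a4 had 640 ± 28.8 RPM in control and 696 ± 68.7 RPM with cAMP (SD, n = 3 each).

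Among carriers of the plasma membrane and lysosome, Slc20a2, a sodium-dependent phosphate transporter, rose 3.16-fold, from 5.72, 8.6 and 10.6 RPM to 34.2, 27.6 and 16.9 RPM (limma adjusted p = 0.00264). Slc26a11, a sulphate and chloride transporter, had 1.61, 0 and 0 RPM in control and 5.08, 8.93 and 7.36 RPM with cAMP (limma adjusted p = 0.00218). It could be tested only because it was high with cAMP, and it was not called with edgeR or DESeq2 on recovered reads, where the adjusted p reached 0.308. Slc44a1, a choline transporter, had 1.98, 0 and 2.04 RPM in control and 12.1, 4.87 and 4.8 RPM with cAMP (limma adjusted p = 0.0229). The Slc44a1 libraries did not overlap, yet its call was also lost without the filter (adjusted p = 0.0604), with a pseudocount of 0.1 (adjusted p = 0.0718), with edgeR and DESeq2 (adjusted p = 0.267 and 0.329) and without the second control, first cAMP or second cAMP library (adjusted p from 0.055 to 0.139).

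The V-ATPase subunits moved in both directions. All 7 were tested, 1 was higher (14.3%) and 3 were lower (42.9%), beside 13.5% and 13.9% over all genes tested. The difference in share was not tested. Their median change was -0.20 on the log2 scale. Atp6v1f fell from 324, 314 and 327 RPM to 230, 172 and 184 RPM (log2 fold change -0.73, SE 0.11, limma adjusted p = 2.92e-05), a clear gap between tight control and looser cAMP values. Atp6ap1 fell from 246, 250 and 270 RPM to 200.5, 142 and 188 RPM (log2 fold change -0.54, limma adjusted p = 0.00219). Atp6v0c, at 1162, 1144 and 1074 RPM in control, had 1030, 947 and 963 RPM with cAMP, a log2 fold change of -0.20 (limma adjusted p = 0.0265). Atp6v1d rose from 187, 183 and 197 RPM to 255, 243 and 224 RPM (log2 fold change 0.35, limma adjusted p = 0.0184). These last 2 changes were small beside the others, and both calls were lost without the first or second control or the second cAMP library, Atp6v0c also without the third and Atp6v1d without the first cAMP library (adjusted p from 0.0532 to 0.116).

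The largest decrease was at Slc9a3r2, a PDZ scaffold protein named after the sodium/proton exchanger that it binds. It had 16.2, 8.65 and 16.2 RPM in control and 0, 0.0178 and 3.65 RPM with cAMP, an 11.2-fold difference of the means (log2 fold change -3.08, SE 0.60, limma adjusted p = 0.000479). The groups did not overlap, although 1 cAMP library kept several RPM. Slc9a3r2 could be tested only because it was high in control. EdgeR on recovered reads did not call it (adjusted p = 0.152), while DESeq2 gave no adjusted p. The related scaffold Slc9a3r1 moved the opposite way, from 30.9, 22.7 and 22.6 RPM to 48.3, 52.4 and 48.1 RPM (log2 fold change 0.95, SE 0.22, limma adjusted p = 0.00239).

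Of the 5 inorganic ion exchangers and cotransporters tested, 2 rose as given above (40%) and 2 fell (40%). Over all genes tested the shares were 13.5% and 13.9%, and the difference in share was not tested. Slc4a2, a chloride/bicarbonate exchanger, fell from 11.9, 9.96 and 7.72 RPM to 0.701, 1.11 and 6.35 RPM, where the third cAMP library lay close to the control range (limma adjusted p = 0.0175). The call was lost with edgeR (adjusted p = 0.139), without the filter (adjusted p = 0.0649) and without the first or second library of either group (adjusted p from 0.056 to 0.111). Slc12a4, a potassium/chloride cotransporter, fell from 55.5, 59.7 and 43.2 RPM to 24.8, 29.1 and 26.1 RPM, a 1.98-fold difference that held in every alternative (log2 fold change -0.95, limma adjusted p = 0.0021).

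Of the 6 nucleotide sugar transporters and their relatives, Slc35e4 and Slc35c2 fell (33.3%) and none rose. Over all genes tested 13.9% fell and 13.5% rose, and the difference in share was not tested. Slc35e4 had 80.1, 79.8 and 52.1 RPM in control and 24.7, 28.7 and 22.7 RPM with cAMP, a 2.79-fold difference (log2 fold change -1.42, SE 0.22, limma adjusted p = 3.04e-05). Slc35c2 fell 1.5-fold (limma adjusted p = 0.0319), a call lost with edgeR, without the filter and without any 1 library other than control 3 and cAMP 1 (adjusted p up to 0.154). The median over the family was -0.33 on the log2 scale. Of the 5 ABC genes tested, Abcc5, an exporter of organic anions and cyclic nucleotides, fell 1.89-fold, from 42.9, 53.4 and 43.5 RPM to 29.4, 16.7 and 27.8 RPM (limma adjusted p = 0.00736). Slc38a9, a lysosomal arginine transporter that takes part in nutrient sensing, fell from 13.5, 13.9 and 14.8 RPM to 8.02, 5.21 and 3.71 RPM (limma adjusted p = 0.0299), a call lost without the filter (adjusted p = 0.0514) and without any 1 library other than cAMP 1 (adjusted p from 0.0694 to 0.1005). None of the 6 metal ion transporters was called, and their median was -0.05 on the log2 scale.

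The comparison of ΔSOX10 with parental S16 cells asks which of the genes change when SOX10 is lost. Of the 58 members, 51 were tested. With limma, 5 were lower (9.8%) and 2 were higher (3.92%) in the clones, beside 5.5% lower and 1.99% higher over all 2763 genes tested. In these 7 the parental and ΔSOX10 libraries did not overlap. The same held for members that were not called, such as Atp6v1d, Slc25a11 and Slc35b2, and was not counted over all genes. The median log2 fold change of the members was -0.08, beside -0.17 for all genes, and after median-ratio scaling these medians were 0.07 and -0.03, with 3 members lower and 2 higher. The lower genes were Kcnh8, 2 mitochondrial carriers, an organic ion carrier homolog and Abca8a, and the higher genes were a heme and a zinc transporter. The calls rest on 2 parental libraries. Without the first of them no member was called lower and 1 was called higher, and without the second none was called in either direction, where Kcnh8, Abca8a and Slc22a17 could no longer pass the minimum level. The lower count was 2 with edgeR and 3 with DESeq2 on recovered reads, and 2, 1 and 2 without clone 1-1, 1-2 and 2-1.

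**Figure D3:**
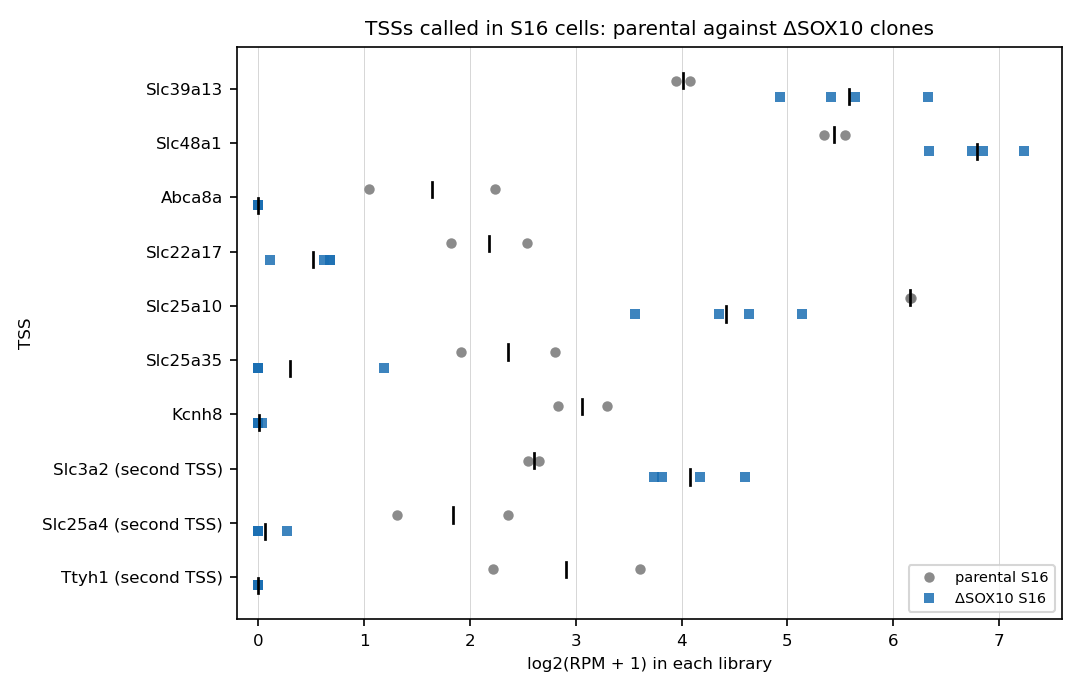
Level of each TSS called in the S16 comparison, as log2(RPM + 1) on the x axis, with 1 circle per parental library, 1 square per ΔSOX10 clone and a black line at the mean of each group. The first 7 rows are main TSSs and the last 3 rows are other TSSs of member genes. At Kcnh8, Abca8a and the Ttyh1 TSS the clones sit at or next to 0.

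The promoters of 4 of the 5 members lower in ΔSOX10 S16 cells are shown because this comparison bears on them, and none was matched for Abca8a. They are 250 bases before the RefSeq start in the GRCr8 assembly, an assembly other than that of the measured TSSs (rn5), so the measured clusters could not be placed in them. Kcnh8 lies at chr9:5742433-5742682 (plus strand), Slc25a10 at chr10:106264146-106264395 (plus strand), Slc22a17 at chr15:32358781-32359030 (minus strand) and Slc25a35 at chr10:54172115-54172364 (plus strand). Capitals mark TGACG or its complement CGTCA, the core of the cAMP response element.
Kcnh8: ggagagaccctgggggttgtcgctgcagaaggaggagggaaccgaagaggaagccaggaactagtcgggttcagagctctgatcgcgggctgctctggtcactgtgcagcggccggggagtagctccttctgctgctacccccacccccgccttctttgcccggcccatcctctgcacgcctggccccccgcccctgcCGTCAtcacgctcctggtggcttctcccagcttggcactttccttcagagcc
Slc25a10: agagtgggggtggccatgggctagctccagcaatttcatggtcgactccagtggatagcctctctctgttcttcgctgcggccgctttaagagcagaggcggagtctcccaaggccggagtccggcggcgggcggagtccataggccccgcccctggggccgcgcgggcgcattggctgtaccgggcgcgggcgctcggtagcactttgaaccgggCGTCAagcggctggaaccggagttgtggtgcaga
Slc22a17: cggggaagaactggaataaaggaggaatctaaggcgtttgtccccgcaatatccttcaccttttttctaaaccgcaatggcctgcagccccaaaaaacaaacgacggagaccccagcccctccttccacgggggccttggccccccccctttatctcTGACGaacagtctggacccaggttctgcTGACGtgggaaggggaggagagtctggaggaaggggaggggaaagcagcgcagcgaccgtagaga
Slc25a35: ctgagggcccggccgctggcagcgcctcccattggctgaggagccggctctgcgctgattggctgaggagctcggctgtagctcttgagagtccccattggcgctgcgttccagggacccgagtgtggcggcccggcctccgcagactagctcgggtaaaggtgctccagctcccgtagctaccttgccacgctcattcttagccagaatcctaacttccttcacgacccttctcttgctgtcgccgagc

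The core of the cAMP response element occurred once in the Kcnh8 window, once in that of Slc25a10, 2 times in that of Slc22a17 and not in that of Slc25a35. ACAAAG and ACAATG, letters that SOX proteins bind, were found in none of these 4 windows on either strand. RefSeq promoters were matched for 45 of the 58 members, 43 by symbol and 2 by synonym, and each was searched on both strands from 250 bases before to 50 bases after the start. TGACG occurred in 18 of the 45 (40%), beside 22% of 27457 promoters of all genes. ACAAAG or ACAATG occurred in 8 (17.8%), beside 28.6% of all promoters. CACGTG, the E-box that lysosomal genes often carry, occurred in 2 (4.44%), beside 6.65% of all promoters, and matches of different motifs were allowed to overlap. The members were all chosen among candidates in nerve near H3K4me3 and SOX10 peaks, while the promoters of all genes were not restricted in this way. Motif shares among all candidate genes were not counted. Whether the differences in share are particular to the members was therefore not tested. The motif numbers are counts of letters and not of bound sites.

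Kcnh8 had the largest change. It had 6.1 and 8.81 RPM in the parental libraries and 0, 0.0254, 0 and 0 RPM in clones 1-1, 1-2, 2-1 and 2-2, where the value above 0 is a single read. By pooled reads the clones were 1107-fold lower, with an exact 95% counting interval of 198 to 43790, and the log2 fold change was -3.05 (SE 0.36, limma adjusted p = 0.000862). The call was the same in every alternative in which Kcnh8 could be tested. Kcnh8 passed the minimum level through the parental libraries alone. With either of them left out it could not be tested, so the call was not checked against their loss. Its nerve level, 23.5 and 16.8 RPM, was above that of every cultured cell library.

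Slc25a10 was at 70.5 and 70.7 RPM in the parental libraries and at 34.1, 19.4, 23.9 and 10.8 RPM in the clones, 3.2-fold lower by the means (log2 fold change -1.74, SE 0.40, limma adjusted p = 0.0298). Each clone had less than the parental libraries, but the clones differed among themselves by more than the parental libraries did. The Slc25a10 call was lost without the filter (adjusted p = 0.0503) and without clone 1-2 or either parental library (adjusted p from 0.0638 to 0.0778). Slc25a35, a mitochondrial carrier of unassigned substrate, had 5.97 and 2.77 RPM in the parental libraries, 0 RPM in clones 1-1, 1-2 and 2-1 and 1.28 RPM in clone 2-2 (log2 fold change -2.06, limma adjusted p = 0.0374). That call was lost with edgeR, DESeq2 and a pseudocount of 0.1 and without any 1 library other than clone 2-2 (adjusted p up to 0.594). Slc25a35 could be tested only because it was high in the parental libraries.

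Slc22a17, an organic cation carrier homolog known as a receptor for lipocalin-2, had 4.79 and 2.54 RPM in the parental libraries and 0.0764, 0.534, 0.601 and 0.598 RPM in the clones, 8.1-fold lower by the means (limma adjusted p = 0.0403). Abca8a had 3.71 and 1.06 RPM in the parental libraries and no read in any clone, at least 29.8-fold lower against a floor of 3 reads in each clone library (limma adjusted p = 0.0471). Both genes, like Kcnh8, passed the minimum through the parental libraries alone. Both calls were lost without any 1 of the 4 clones (adjusted p from 0.0626 to 0.106). Median-ratio scaling and summing the candidate TSSs of each gene also ended both. The Slc22a17 call was further lost with edgeR (adjusted p = 0.296), DESeq2 (adjusted p = 0.158) and a pseudocount of 0.1 (adjusted p = 0.0977). That of Abca8a was further lost with edgeR (adjusted p = 0.0821) and a pseudocount of 5 (adjusted p = 0.0781).

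The members that rose in ΔSOX10 S16 cells carry heme and zinc. Slc48a1, which moves heme out of lysosomes, had 45.5 and 39.7 RPM in the parental libraries and 80.1, 106, 114 and 149 RPM in the clones, a 2.64-fold difference (log2 fold change 1.35, SE 0.26, limma adjusted p = 0.0115). Slc39a13, a zinc transporter of intracellular membranes, had 14.4 and 15.9 RPM and 48.8, 29.5, 41.4 and 79.5 RPM, a 3.28-fold difference (log2 fold change 1.56, SE 0.37, limma adjusted p = 0.0331). All clones were above both parental libraries at both genes. The call of Slc48a1 was lost without the second parental library (adjusted p = 0.0781). That of Slc39a13 was lost without the filter (adjusted p = 0.0528), without either parental library or without clone 1-1 or 2-1 (adjusted p up to 0.0989). With cAMP neither was called by limma, at log2 fold changes of -0.55 for Slc48a1 and -0.07 for Slc39a13, although DESeq2 called Slc48a1 lower (adjusted p = 0.0198).

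No V-ATPase gene was called by limma in S16 cells, where the median over 7 genes was -0.06 on the log2 scale, although DESeq2 called Atp6v1f higher (adjusted p = 0.0451), and Atp6v0c had 875 ± 35.2 RPM in parental cells (SD, n = 2) and 840 ± 43.4 RPM in the clones (SD, n = 4). None of the Slc35 genes or inorganic ion exchangers was called either. Slc25a4 was high in all S16 libraries, at 1318 ± 66.2 RPM in parental cells and 1298 ± 409 RPM in the clones. The clones of series 1 were also compared with those of series 2. None of the 51 members tested was called with limma or with edgeR, 1 had an unadjusted p under 0.05 with limma, and 0% of all genes tested were called.

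Kcnh8 and Slc25a10 were the members called in both comparisons, higher with cAMP and lower in ΔSOX10 S16 cells. They were 2 of the 51 members tested in both (3.92%), beside 74 of 2737 genes (2.7%) with these directions and 125 (4.57%) called in both in any direction. No member was called in the same direction in both. The comparisons share no library. Of the other 16 genes called with cAMP, none was called in S16 cells. The ΔSOX10 log2 fold changes of the genes with the next largest increases with cAMP were 1.00 at Slc25a32, -0.60 at Slc26a11 and, not called, -1.40 at Slc44a1 (limma adjusted p = 0.0763).

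**Figure D4:**
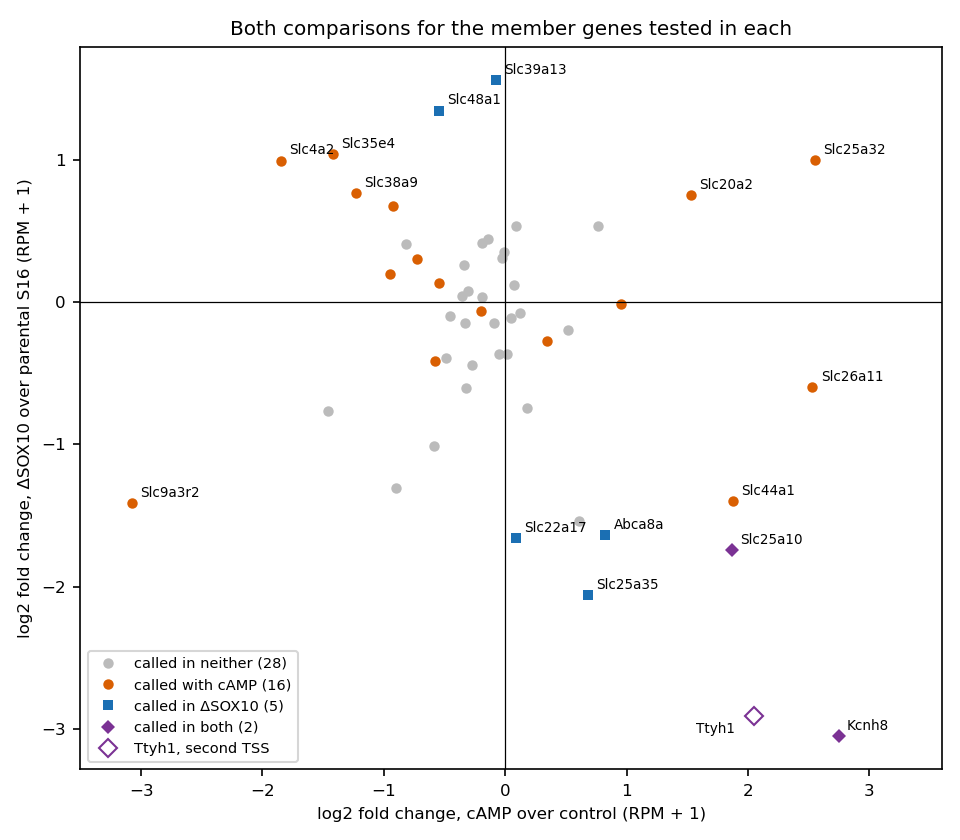
Log2 fold change with cAMP (x axis) against log2 fold change in ΔSOX10 S16 cells (y axis), both of RPM + 1, for the member genes tested in each comparison. The 2 filled diamonds at the lower right are Kcnh8 and Slc25a10, the open diamond is a second TSS of Ttyh1, and 28 genes called in neither comparison lie mostly within 1 of 0 on both axes.

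By position, the main TSS overlapped the SOX10 peak listed with it in 36 of the 58 members (62.1%), beside 70% of all genes, and the H3K4me3 peak in 55 (94.8%), beside 96%. The main TSSs of Kcnh8 and Slc25a10 (chromosome 10, 109258840 to 109258947, rn5, plus strand) overlapped their SOX10 peaks. The gap to the peak was 45 bp at Slc22a17, 346 bp at Slc25a35 and 679 bp at Abca8a. The main TSSs of both Slc48a1 and Slc39a13, which were higher in the clones, overlapped a SOX10 peak. The median width of the members' main TSSs was 80.5 bp, beside 77 bp for all genes.

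The 58 genes held 32 other candidate TSSs, in 16 of the genes. With cAMP 3 of 17 tested were higher and none was lower, beside 12.9% higher and 11% lower over all 4119 TSSs tested. In S16 cells 2 of 16 tested were lower and 1 was higher, beside 6.55% lower and 1.65% higher over all 3875 TSSs tested. Ttyh1, a tweety family protein, had a TSS (chromosome 1, 74794995 to 74795132, rn5, plus strand) 17446 bp upstream of its main TSS. It had 4.68 and 0.625 RPM in nerve, 11.8, 12.1 and 2.57 RPM in control and 30.1, 36.2 and 35.8 RPM with cAMP (log2 fold change 2.05, SE 0.41, limma adjusted p = 0.000622). In S16 cells it had 11.1 and 3.65 RPM in the parental libraries and no read in any clone, at least 92.5-fold lower against a floor of 3 reads in each clone library (log2 fold change -2.91, limma adjusted p = 0.00383), and it could be tested only because it was high in the parental libraries. Like the main TSSs of Kcnh8 and Slc25a10, it was higher with cAMP and lower in ΔSOX10 S16 cells. The main TSS of Ttyh1, by contrast, had at most 2.66 RPM in any cultured cell library and was not called with cAMP.

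Kcnk5, named after its values were seen, had 0 reads at its main TSS in cultured cells but a second TSS (chromosome 15, 8654511 to 8654593, rn5, plus strand) 4815 bp away. This TSS had 3.98 and 0.886 RPM in nerve, 0, 1.31 and 0 RPM in control and 19.2, 26.5 and 35 RPM with cAMP, which was 61.4-fold higher by the means (log2 fold change 4.36, SE 0.50, limma adjusted p = 7.29e-07). DESeq2 gave an adjusted p of 0.0548 for it. With 1 control library above 1 RPM, this TSS could be tested only because it was high with cAMP. In S16 cells it had at most 1.04 RPM and was not tested. Slc25a10 also rose at a second TSS 269 bp from its main TSS, from at most 0.474 RPM in control to 3.75, 2.67 and 9.74 RPM with cAMP (limma adjusted p = 0.00845), a call that was lost without the third cAMP library (adjusted p = 0.0565). This TSS passed the minimum level through the cAMP libraries alone.

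In S16 cells, a second TSS of Slc25a4, 1576 bp from the main one, had 4.14 and 1.48 RPM in the parental libraries and 0.204, 0, 0 and 0 RPM in the clones (log2 fold change -1.77, limma adjusted p = 0.0318, lost without any 1 clone, adjusted p up to 0.0828), while the main TSS was not called. The second TSS passed the minimum level through the parental libraries alone, and edgeR and DESeq2 did not call it. A second TSS of Slc3a2, 852 bp from the main one, rose from 4.86 and 5.29 RPM to 13.1, 12.3, 23.3 and 17 RPM. Its log2 fold change was 1.48 (limma adjusted p = 0.0389). The call was lost without the filter (adjusted p = 0.0502) and without any 1 library other than clone 1-1 (adjusted p up to 0.244). The main TSS of Slc3a2 had 293 ± 18.8 RPM in parental cells (SD, n = 2) and 324 ± 70.1 RPM in the clones (SD, n = 4). Summed over the candidate TSSs of each gene, 10 members were higher and 10 lower with cAMP, and 4 were lower and 2 higher in ΔSOX10 S16 cells.

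A list of 22 related channels, pump regulators and carriers outside the symbol rule was examined in the same way. It was drawn up with earlier results of these data known. With cAMP, 21 were tested, 4 were higher (19%) and 3 were lower (14.3%), near the 13.5% and 13.9% over all genes, and the median was 0.14 on the log2 scale. The chloride channel relative Ano4 (log2 fold change 4.10), Fxyd6, a regulator of the Na/K-ATPase (3.27), the cation channel Trpm3 (3.04) and the ATP-gated channel P2rx4 (1.17) were higher. The lower genes included Fxyd1, which also regulates the Na/K-ATPase (-4.94, a pooled read ratio of 3115 with an exact 95% counting interval of 862 to 25730), and Clic1, an intracellular chloride channel protein (-1.22). Trpm3 and Fxyd1 passed the minimum level only through the group in which they were high. Ano4, with 1 control library above 1 RPM, could also be tested only because it was high with cAMP. In ΔSOX10 S16 cells, 20 were tested, and the genes called included Mpc2, a subunit of the mitochondrial pyruvate carrier, which was lower (log2 fold change -0.75). Mpc2 was not called with edgeR, with median-ratio scaling or without the first parental library, the second parental library, clone 1-2 or clone 2-1.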

How the data were processed

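The authors trimmed Tn5Prime reads with cutadapt 1.14, aligned them to rn5 with STAR 2.5.2a, converted them with SAMtools 1.9, clustered read starts with Paraclu and counted reads per TSS with featureCounts of Subread 1.6.1 (versions from the submitters' processing notes). TSSs were assigned to genes within 1 kb on the same strand. The values deposited by the authors are RPM per TSS and library, scaled to the whole library. The deposited table also holds log2 fold changes and FDR-adjusted p-values of the authors' 2 edgeR comparisons, in 4 columns, which were not used. Treatment of reads with several matches is not given in the sources used here, so near-identical copies of Slc25a4, Atp6v0c or Abca8a are uncertain.

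Since each RPM value is a multiple of a single read, the total reads of each library could be computed. Between 93.2% and 100% of values were whole reads (tolerance 0.1), and 4 S16 libraries hold some rounded values. Floors and intervals cover counting error only, and no molecular identifiers are named. Replicates of primary cells were independent populations, the clones came from single cells, and both parental libraries came from the same line, so their spread may be technical.

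Log2(RPM + 1) was tested with limma 3.58.1 (eBayes with trend, R 4.3.3) wherever a TSS exceeded 1 RPM in 2 or more of the libraries compared, without covariates. Benjamini-Hochberg adjustment covered all 4119 (cAMP) or 3875 (S16) TSSs tested, and 0.05 was the limit for a call. Fold changes on this log2 scale understate those of low TSSs. The contrast of clone series used 3 groups. The scripts were tested on simulated data. Same-numbered control and cAMP libraries did not deviate together (correlations 0.03, 0.01 and 0.04), so no pairing was used. Alternatives were pseudocounts of 0.1 and 5, testing without a filter, a minimum mean of 5 RPM, median-ratio scaling, edgeR 4.0.16 (quasi-likelihood) and DESeq2 1.42.0 on recovered reads, TSSs summed per gene, each library left out and a replicate block.

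Named genes are the 10 members highest in nerve, up to 10 called members per comparison and direction with the largest fold change, those called in both, the highest in nerve of each family, called other TSSs, and untested members above 20 RPM in nerve. Values of 1 member and of 1 gene of the related list are not reported here, although the counts include them. The members, lists and families were chosen with earlier results of these data known. Marker lists covered Schwann, fibroblast, mural, macrophage and adipocyte genes. Promoter sequences are from RefSeq (GRCr8), with the first listed start of each gene.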

Additional observations from a re-analysis of the deposited data

Results flagged for a closer look

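In each TSS named above, the 4 ΔSOX10 clones were searched for a clone that stood apart from the other 3, by Dixon's test for 4 samples at the 95% level. Of 31 TSSs with a range above 0, 8 had such a clone. The test finds about 1 in 20 by chance, but this rate does not apply to 5 of the 8, where the 3 other clones were at 0 and any reads in the fourth pass it. These were Kcnh8 with 0.0254 RPM in clone 1-2, Slc25a35 with 1.28 RPM and Slc44a1 with 0.627 RPM in clone 2-2, and in clone 1-1 the second TSSs of Kcnk5 with 1.04 RPM and of Slc25a4 with 0.204 RPM.

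The other 3 had reads in every clone. Slc9a3r1 had 60.8 RPM in clone 2-2, beside 35 to 38.8 RPM in the other clones and 40.9 and 42.5 RPM in the parental libraries. Slc38a9, the lysosomal arginine transporter, had 9.48 RPM in clone 2-1 and 2.17 to 2.75 RPM in the others. Slc22a17 had 0.0764 RPM in clone 1-1, beside 0.534 to 0.601 RPM in the others. Clones 1-1 and 2-2 were each the outlying clone in 3 of the 8 cases, most of them cases with the other clones at 0. The clones were single libraries, and whether the clone or its library sets these values was not tested.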

How the results depend on the processing

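No fold change of a named member changed sign under an alternative where either value was called. Of the 18 members called with cAMP, 10 kept the call in all alternatives that tested them, namely Kcnh8, Slc25a32, Slc25a10, Slc20a2, Slc9a3r1, Slc35e4, Slc12a4, Abcc5, Atp6v1f and Atp6ap1. The count of higher members was 5 with a mean of at least 5 RPM, since that filter tests fewer low TSSs, and between 6 and 8 without any 1 library. The count of lower members was between 6 and 9 without any 1 library. Without the filter 7 were higher and 7 lower, with Slc38a9, Slc35c2, Slc4a2 and Slc44a1 among the calls lost. With a library left out, the lost calls were of Slc38a9 without any library other than cAMP 1. They were also of Slc35c2 and Atp6v0c without control 1, control 2, cAMP 2 or cAMP 3, of Atp6v1d and Slc4a2 without control 1, control 2, cAMP 1 or cAMP 2, and of Slc44a1 without control 2, cAMP 1 or cAMP 2. These calls lost with a library left out had adjusted p-values between 0.0532 and 0.154. The replicate block gave 8 members higher and 11 lower, and ended none of the calls. DESeq2 gave Slc9a3r2 no adjusted p.

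In S16 cells, the 5 lower members became 3 with a pseudocount of 0.1, 2 with edgeR, 1 with a mean of at least 5 RPM, 3 with median-ratio scaling and 3 with DESeq2, and between 0 and 4 without any 1 library. The 2 higher members became 1 without a filter and between 0 and 2 without any 1 library. Kcnh8 alone kept its call wherever it was tested, but with either parental library left out it could not be tested. Slc25a10 lost its call without a filter and without clone 1-2 or either parental library (adjusted p up to 0.0778), and Slc48a1 only without the second parental library (adjusted p = 0.0781). No paired analysis was possible in S16 cells because the clone labels share no replicate number with the parental libraries. No member was called between the clone series in any alternative run. The median nerve level of the members, 9.24 RPM, was 11.9 RPM with the first nerve alone and 10.9 RPM with TSSs summed per gene. At levels of a few RPM, log2 fold changes depend on the pseudocount, and a count of 0 allows up to 0.1 RPM in the shallowest library.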
